A study of Mus musculus with 6 samples.

Results

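Homeobox genes outside the Hox clusters were examined for binding by Dppa2 in mouse embryonic stem cells (ESCs). They were chosen by name from the protein-coding genes of GENCODE M1 on the mm9 build, as the symbols that start with one of 29 family names, from Alx to Vax, and go on with a digit; Nkx2-5 and Lhx8 were left out. This gave 106 gene entries of the 22367 protein-coding entries on the chromosomes of the peak list. The 106 entries carry 103 symbols, because 3 symbols, Alx1 and Gsx2 among them, are each annotated as a pair of overlapping entries. The rule itself uses gene names alone, but it was set with earlier results of these data known.

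The cells were of the CGR8 line, mouse ESCs grown on gelatin without feeders in medium with leukemia inhibitory factor and serum. The cells stably expressed Dppa2 with an N-terminal V5 tag from a pPyCAG vector and had been selected as clones with puromycin; the sources used here do not give the number of clones sequenced. The control was an anti-V5 ChIP from the parental CGR8 line without the tag, and each ChIP gave 1 library. One deposited list of 3336 V5-Dppa2 peaks was analysed, which gives no replicate error, no depth, no read counts and no expression, so the cell type could not be checked against its markers. A gene was called Dppa2-bound when the midpoint of a peak lay within 1000 bp of the transcription start site (TSS) of any of its transcripts. The peak score is the authors' value, −log10 of the p-value that MACS gave against the control, multiplied by 10, and runs from 100 to 3100 over the list.

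Homeobox genes encode transcription factors that bind DNA through the homeodomain, a helix-turn-helix fold, and many of them set the identity of tissues and body regions. They are sorted into classes by the sequence of the homeodomain and by further domains beside it, such as the LIM, PRD and CUT domains or the extra domain of the SINE class, while the TALE class has extra residues in a loop of the homeodomain. Pax1 and Pax9 lack a homeodomain, and Pax2, Pax5 and Pax8 keep a part of it, but they belong to the PRD class by descent. In ESCs most developmental homeobox genes are silent or weakly expressed, and their start sites commonly lie in CpG islands, which are stretches rich in the dinucleotide CpG. Dppa2 is a SAP domain protein of the early embryo, the germ line and ESCs.

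Stretches of sequence are given around the peak midpoint at the 3 homeobox genes with the highest scores and at the one with the lowest score. Another is given at the one with the lowest CpG ratio under its peak. As the genes were picked by these values, the stretches do not measure how far the bound genes differ. Each stretch was read from mm9 within 300 bases centred on the midpoint, left out annotated UTR bases, and is given 5′ to 3′ on the strand of the gene with every CpG in capitals. For Irx6 the stretch is chr8:95197952-95198187 on the plus strand, which ends 1 bp before the TSS and holds 6 CpGs in 236 bases. For Nkx6-2 it is chr7:146767663-146767962 on the minus strand, inside the gene, with 34 CpGs in 300 bases. Pax8, with chr2:24330292-24330591 on the minus strand, has 10 CpGs in 300 bases. The stretch at Cux1, chr5:137043498-137043797 on the minus strand, lies upstream of the TSS and has 39 CpGs in 300 bases. At Nkx6-3 only 46 bases outside the UTR were left, chr8:24264057-24264102 on the plus strand, at the start of the coding sequence. They hold 0 CpGs, while the whole peak there, of 2286 bp, holds 53.
Irx6: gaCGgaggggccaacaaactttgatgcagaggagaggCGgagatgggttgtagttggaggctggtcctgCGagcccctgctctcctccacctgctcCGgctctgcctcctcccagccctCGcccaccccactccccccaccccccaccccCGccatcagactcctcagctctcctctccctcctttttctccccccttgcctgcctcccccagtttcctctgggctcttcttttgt
Nkx6-2: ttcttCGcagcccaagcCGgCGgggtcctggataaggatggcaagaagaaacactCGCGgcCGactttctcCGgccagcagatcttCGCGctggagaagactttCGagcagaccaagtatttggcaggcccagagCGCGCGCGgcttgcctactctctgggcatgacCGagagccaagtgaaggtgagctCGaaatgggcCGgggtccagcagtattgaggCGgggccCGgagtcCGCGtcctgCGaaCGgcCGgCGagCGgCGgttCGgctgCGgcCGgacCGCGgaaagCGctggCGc
Pax8: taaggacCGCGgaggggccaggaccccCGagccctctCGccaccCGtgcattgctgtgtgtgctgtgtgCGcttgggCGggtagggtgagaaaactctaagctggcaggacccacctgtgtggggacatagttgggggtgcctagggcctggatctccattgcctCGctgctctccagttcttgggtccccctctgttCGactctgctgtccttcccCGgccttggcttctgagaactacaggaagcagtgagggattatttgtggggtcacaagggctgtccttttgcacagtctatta
Cux1: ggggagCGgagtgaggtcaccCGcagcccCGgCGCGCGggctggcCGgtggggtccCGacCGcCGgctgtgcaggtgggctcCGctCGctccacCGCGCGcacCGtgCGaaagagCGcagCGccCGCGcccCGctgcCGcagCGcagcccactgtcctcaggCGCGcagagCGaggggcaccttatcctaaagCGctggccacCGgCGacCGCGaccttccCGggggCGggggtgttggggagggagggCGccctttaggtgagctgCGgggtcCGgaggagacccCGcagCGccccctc
Nkx6-3: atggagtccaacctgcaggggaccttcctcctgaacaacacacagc

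Of the 106 homeobox gene entries, 14 were bound by Dppa2, a share of 13.2% with an exact Clopper-Pearson interval at 95% from 7.41 to 21.2% (counting error only). The share of all protein-coding genes bound was 14.2%, which lies inside this interval. At a score of 200 or more the shares were 3.77% and 8.06%. In each of the 3 upper quintiles of the CpG ratio the share of homeobox genes was the lower one, with few bound genes in each. In quintile 2 it was the higher one, with 2 of 9 bound or 22.2% beside 5.92%, and the lowest quintile had 0 of 2 bound beside 1.32%. The 14 bound genes were Irx6, Nkx6-2, Pax8, Irx5, Cux2, Gbx1, Pbx3, Barx2, Cdx1, Pitx3, Dlx3, Phox2a, Nkx6-3 and Cux1, in the order of their scores. They belonged to 11 of the 29 families, and no family other than Irx, Nkx and Cux had more than 1 bound gene. Each of the 14 genes had 1 peak, which it shared with no other of the 14.

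The CUT class had 2 of 5 genes bound. The TALE class had 3 of 15, the HOXL class 2 of 10, the PRD class 3 of 23 and the NKL class 4 of 38. No gene of the LIM class, with 9 members, or of the SINE class, with 6, had a peak. These classes are small, and their exact intervals, from 0 to 33.6% for the LIM class and from 0 to 45.9% for the SINE class, include the share of all coding genes. The interval of the CUT class ran from 5.27 to 85.3% and also includes it.

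**Figure D1:**
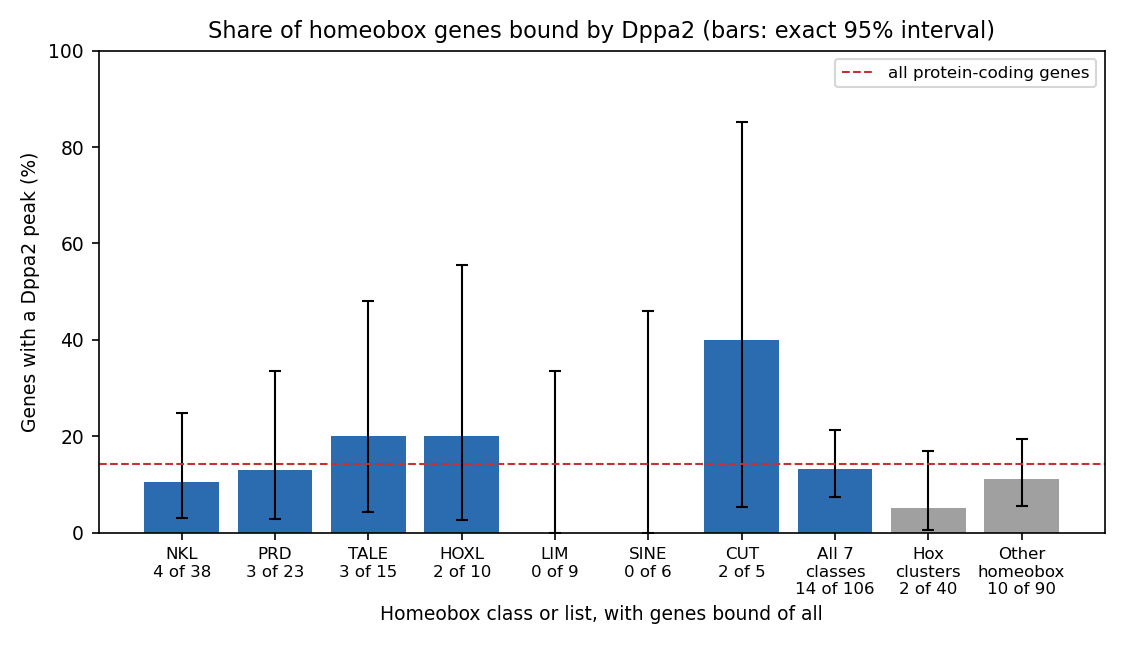
Share of genes with a Dppa2 peak midpoint within 1000 bp of a TSS (y axis, percent) for the 7 homeobox classes, all of them together, the Hox cluster genes and other homeobox genes (x axis). Bars give the share, error lines the exact 95% interval for counting error, and the dashed line the 14.2% of all protein-coding genes, which lies inside every interval.

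Among the TALE genes, which include the Iroquois genes and the Pbx and Meis cofactors of Hox proteins, Irx6 had the highest score of all 14 bound genes. Irx6 (ENSMUSG00000031738) maps to chromosome 8 (plus strand, 95198188 to 95204855). The peak there runs from 95197071 to 95199131, has a score of 330.4 and ranks 937 of the 3336 peaks, with the midpoint 87 bp upstream of the TSS. Irx5 (ENSMUSG00000031737), known for its part in the repolarization gradient of the heart, lies 316 kb before it on the same strand, from 94881695 to 94885351. Its peak, from 94879420 to 94882456, is the widest of the 14 at 3037 bp, and it has a score of 203.6. The midpoint at Irx5 was 757 bp upstream of the TSS, and the same midpoint also lay within 1000 bp of the TSS of 4933436C20Rik, another annotated gene. Irx3, the third gene of this cluster, lies 556 kb from Irx5 and was unbound. Its CpG observed-to-expected ratio was 0.883, beside 0.618 at Irx6 and 0.847 at Irx5. The Irx genes on chromosome 13, Irx1, Irx2 and Irx4, were unbound, with the nearest midpoint 70.8 kb away, at Irx4.

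Pbx3 (ENSMUSG00000038718), a Hox cofactor gene, maps to chromosome 2 (minus strand, 34026977 to 34228660). Its peak, from 34226639 to 34228533 with a score of 162.0, was the densest in CpG of the 14, with 232 CpGs or 12.2 per 100 bp. Of the 8 annotated TSSs of Pbx3, 6 lay within 1000 bp of the midpoint, and the nearest of them was 28 bp away. The midpoint itself lay in an intron. Pbx2 and Pbx4 were unbound, and Pbx4 had its nearest midpoint 41.3 kb away. Meis1, Meis2, Meis3, Pknox1 and Pknox2 were unbound too, and the nearest midpoint to any Meis gene was 732 kb from Meis3.

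The bound genes of the CUT class were both of its Cux genes, which lie on the minus strand of chromosome 5. Cux2 (ENSMUSG00000042589), a marker of upper-layer neurons of the cortex, runs from 122308396 to 122500111. The midpoint of its peak, from 122498812 to 122500925 with a score of 181.5, lay 8 bp upstream of one of its 11 TSSs. Cux1 (ENSMUSG00000029705), a broadly expressed gene, runs from 136724005 to 137043301. The peak at Cux1 spans 137043033 to 137044261 and is the narrowest of the 14 at 1229 bp. Its score of 100.1 ranks 3332 of 3336 and is at the threshold of the authors, and its midpoint was 346 bp upstream of the TSS. Onecut1, Onecut2 and Onecut3, the other CUT genes, were unbound, with the nearest midpoint at least 113 kb away.

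In the PRD class, Pax8, Pitx3 and Phox2a were bound. Pax8 (ENSMUSG00000026976), needed for the thyroid, maps to chromosome 2 (minus strand, 24276071 to 24331119), with a peak from 24329375 to 24331507 and a score of 220.6. Pax8 has 7 TSSs, of which 5 lay within 1000 bp of the midpoint, and the nearest, 176 bp from it, lies 502 bp downstream of the most upstream one. Its main TSS had a CpG ratio of 0.247, the lowest of the bound genes. Pitx3 (ENSMUSG00000025229), a gene of dopaminergic neurons and the lens, maps to chromosome 19 (minus strand, 46210175 to 46222865); the midpoint of its peak, from 46221769 to 46223979 with a score of 130.8, was 9 bp upstream of the TSS. Phox2a (ENSMUSG00000007946), a gene of noradrenergic neurons, maps to chromosome 7 (plus strand, 108966827 to 108971680), and its peak from 108966267 to 108967505 had a score of 115.4. Pax1 to Pax7, Pax9 and Pitx1 were unbound, with the nearest midpoint 138 kb from Pitx1. Alx1, Alx4, Otx1, Otx2, Prrx1 and Prrx2 were also unbound. The nearest midpoint to Otx2, a gene of the forebrain and the epiblast, was 399 kb away, and that to Pax6, a gene of the eye and the brain with 29 TSSs, 819 kb.

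Of the NKL genes, Nkx6-2, Nkx6-3, Barx2 and Dlx3 were bound. Nkx6-2 (ENSMUSG00000041309), a gene of the ventral neural tube and of oligodendrocytes, maps to chromosome 7 (minus strand, 146765276 to 146768696). The peak there runs from 146766636 to 146768989 with a score of 236.1, and the midpoint, 877 bp downstream of the TSS in a coding exon, was the farthest from a TSS among the 14. Nkx6-3 (ENSMUSG00000063672), a gene of the stomach epithelium, maps to chromosome 8 (plus strand, 24263743 to 24269420). It had the lowest CpG density under its peak, from 24262810 to 24265095, at 2.32 per 100 bp, and a score of 106.2. Nkx6-1, which acts in beta cells and the neural tube, was unbound. Its TSS had a CpG ratio of 0.769, beside 0.274 for Nkx6-3. Of the 13 Nkx genes counted, these were the 2 with a peak.

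Barx2 (ENSMUSG00000032033), expressed in muscle and epithelia, maps to chromosome 9 (minus strand, 31653682 to 31721047); its peak from 31720059 to 31721628 had a score of 159.5. Dlx3 (ENSMUSG00000001510), a gene of skin, tooth and placenta, maps to chromosome 11 (plus strand, 94981403 to 94986610), and its peak from 94980920 to 94982495 had a score of 129.4. Dlx4, with its TSS 25.7 kb from that of Dlx3, was unbound and had nearly the same CpG ratio, 0.697 against 0.698. It was the one homeobox gene of the list within 100 kb of a bound one that had no peak. Dlx1, Dlx2, Dlx5 and Dlx6, the genes of the clusters on chromosomes 2 and 6, were unbound, and Dlx1 was closest to a midpoint at 410 kb.

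Among the 10 HOXL entries outside the Hox clusters, Gbx1 and Cdx1 were bound. Gbx1 (ENSMUSG00000067724), a gene of the spinal cord, maps to chromosome 5 (minus strand, 24008575 to 24033094). The midpoint of its peak, from 24031738 to 24033362 with a score of 164.8, was 544 bp downstream of the TSS in a coding exon. Cdx1 (ENSMUSG00000024619), a gene of the posterior body axis and the intestine, maps to chromosome 18 (minus strand, 61178516 to 61195853), and its peak from 61194951 to 61196293 had a score of 137.1. The related genes Gbx2, Cdx2 and Cdx4 were unbound, as were Evx1, Evx2, Gsx1 and Gsx2. Cdx2 marks the trophectoderm and had its nearest midpoint 462 kb away.

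The unbound NKL genes also included Barhl1, Barhl2, Barx1, Emx1, Emx2, En1, En2, Hmx1, Hmx2, Hmx3, Msx1, Msx2, Msx3, Nkx1-1, Nkx1-2, Nkx2-1, Nkx2-2, Nkx2-3, Nkx2-4, Nkx2-6, Nkx2-9, Nkx3-2, Tlx1, Tlx2, Tlx3, Vax1 and Vax2. The LIM class, whose proteins carry LIM domains for protein contacts, consisted of Lhx1 to Lhx6, Lhx9, Lmx1a and Lmx1b, while the SINE class held Six2 and Six5 among others. Lhx1, a gene of the head organizer and the kidney, came closest in the LIM class, with a midpoint 9.09 kb from a TSS. In the SINE class the smallest distance was 40.7 kb, at Six5. Over the 92 unbound entries the median distance to the nearest midpoint was 346 kb. A midpoint lay within 20 kb in 5 entries and within 100 kb in 22, while 7 had none within 1 Mb and Alx1 was the farthest at 3.01 Mb. Of the 3336 peaks in the list, 2920 had their midpoint within 1000 bp of a TSS of a coding gene, and signal below the peak threshold was not analysed here. Peaks at coding genes carry names that begin with TSS, and whether the authors limited the list to peaks near start sites is not known. If they did, peaks far from a TSS would be missing, and the distances above would describe the list and not all binding.

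Tlx3, a gene that selects the glutamatergic fate of spinal cord neurons, lay just outside the definition of a bound gene. A peak of 5031 bp, from 33099800 to 33104830 on chromosome 11, covered the whole of Tlx3, which runs on the minus strand from 33100752 to 33103588. Its midpoint was 1273 bp downstream of the TSS, beyond the limit of 1000 bp, and its score of 427.4 was above that of each of the 14 bound genes. Counting a gene as bound when any base of a peak is within 1000 bp added Tlx3 and no other homeobox gene, which gave 15 of 106 beside 14.6% of all coding genes. Just inside the limit were Nkx6-2 at 877 bp and Irx5 at 757 bp.

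**Figure D2:**
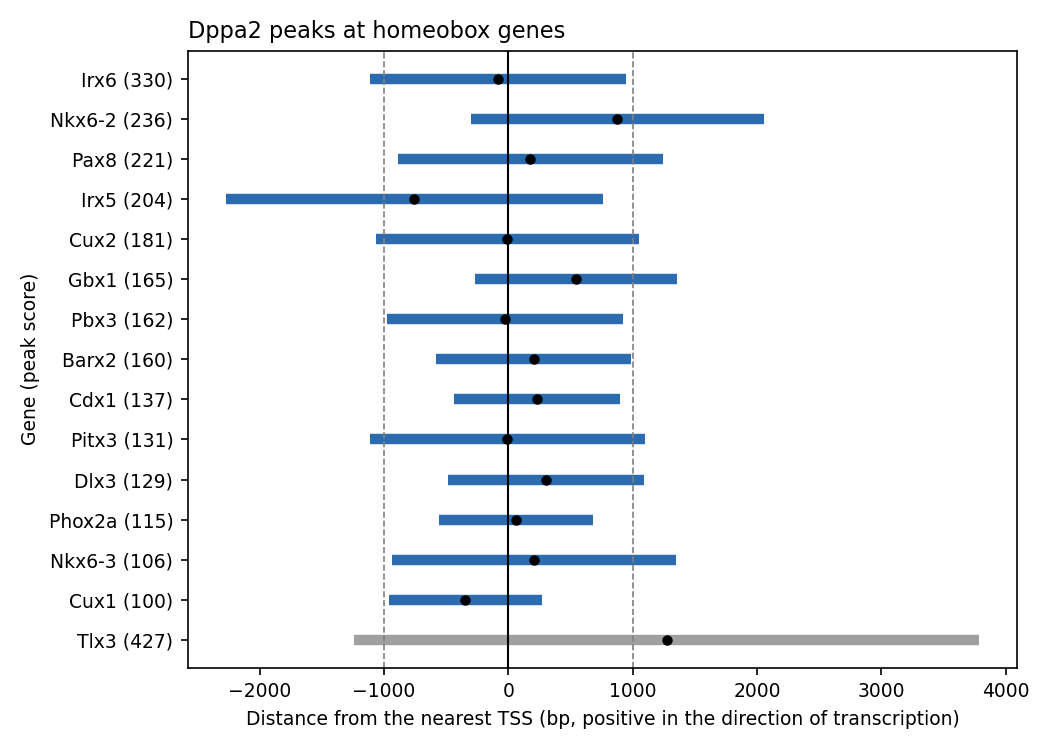
Extent of the peak at each of the 14 bound homeobox genes (blue) and at Tlx3 (grey), in bp from the nearest TSS of the gene and in the direction of transcription (x axis), with the peak score in brackets after the gene name (y axis). Dots are peak midpoints, the solid line is the TSS and the dashed lines the limits of 1000 bp; every bar crosses the TSS, and only the midpoint of Tlx3 lies outside the limits.

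The TSS lay inside the peak in all 14 bound genes. Its midpoint fell downstream of that TSS in 8 of them and upstream in 6, with a median position 118 bp downstream, beside 121 bp for all bound coding genes. Over all bound coding genes the midpoint was downstream in 69.3%. By annotation of the bound gene, 4 midpoints fell in coding exons, 3 in 5′ UTRs, 2 in introns, 1 in an exon of a non-coding transcript and 4 upstream of the gene. Irx5 was the only bound homeobox gene whose midpoint lay within 1000 bp of the TSS of another annotated gene.

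The peaks at homeobox genes were wider and lower in score than those at coding genes by their medians. Their width ran from 1229 to 3037 bp with a median of 1978 bp, beside a median of 1437 bp over the 2920 peaks at bound coding genes. Of the 14 peaks, 11 were wider than that median, namely all but those of Cux1, Phox2a and Cdx1. A width of at least 2000 bp was found in 7 of the 14, at Irx5, Nkx6-2, Nkx6-3, Pitx3, Pax8, Cux2 and Irx6, and in 14.9% of the peaks at coding genes; this limit was chosen after the widths had been seen. The scores ran from 100.1 to 330.4 with a median of 161, beside a median of 221 at coding genes, and 12 of 14 were below the latter. Only Irx6 and Nkx6-2 were above it. The 10 peaks at homeobox genes of neither these families nor the Hox clusters had medians of 1934 bp and 196, with 7 wider than the median of coding genes, 5 of at least 2000 bp and 7 below the median score. Among the coding gene peaks with scores in the range of the homeobox genes, the median width was 1438 bp. The difference in width or score was not tested, since 1 library gives no replicate error and peaks are not replicates.

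**Figure D3:**
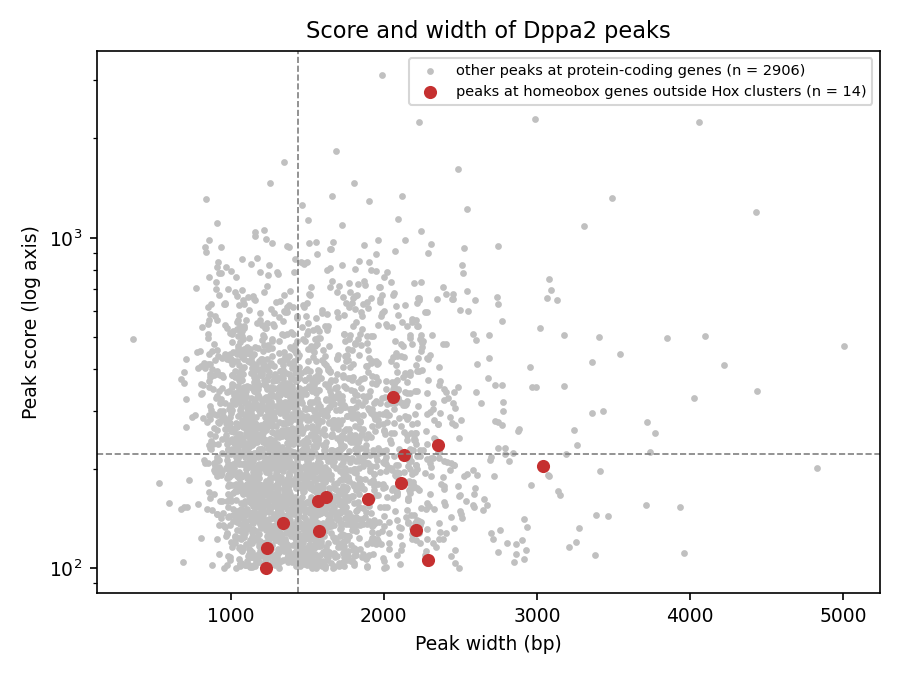
Score (y axis, log scale) and width in bp (x axis) of the 14 peaks at homeobox genes outside Hox clusters (red) and of the other 2906 peaks at coding genes (grey). Dashed lines are the medians over all 2920 peaks, 1437 bp and a score of 221; 12 of the red points lie below the line for the score and 11 to the right of the line for the width.

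At the stricter limit of 200 for the score, a p-value of 1e-20, 4 homeobox genes were left, namely Irx6, Nkx6-2, Pax8 and Irx5. This is 3.77% of the 106, beside 8.06% of all coding genes. Of the peaks at coding genes 57.6% passed this score. The 10 genes that no longer counted as bound included both Cux genes, both HOXL genes and Pbx3.

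Most homeobox genes had start sites rich in CpG. Over 1000 bp around 1 TSS per gene, the CpG observed-to-expected ratio had a median of 0.685 in the 106 entries and of 0.543 in all coding genes, and 67 of the 106 were in the upper 2 quintiles of coding genes. Bound homeobox genes had a median ratio of 0.808, from 0.247 at Pax8 to 1.01 at Pbx3, and unbound ones a median of 0.675, from 0.0491 at Pax4 to 1.01 at En2. The medians of bound and unbound coding genes were 0.776 and 0.467. The GC content had medians of 65.8% in bound and 60.3% in unbound homeobox genes, and of 63.2% and 53.3% in bound and unbound coding genes. The values of bound and unbound homeobox genes overlapped over nearly their whole range. En2, Hmx1, Tlx3, Barhl2 and Six2 had the highest CpG ratios of the unbound genes, from 0.940 to 1.01, and apart from Tlx3 their nearest midpoint was at least 109 kb away.

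Read by quintiles of the CpG ratio over all coding genes, 7 of 28 homeobox genes were bound in the top quintile, which is 25.0% beside 31.6% of all coding genes. In quintile 4, 3 of 39 were bound, or 7.69% beside 18.5%, and in quintile 3, 2 of 28, or 7.14% beside 13.5%. Quintile 2 held Pax8 and Nkx6-3, 2 of 9 genes bound or 22.2% beside 5.92%, and the lowest quintile had 0 of 2 beside 1.32%. In each of the 3 upper quintiles the share of homeobox genes bound was lower than that of coding genes, with few bound genes in each and without a test.

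**Figure D4:**
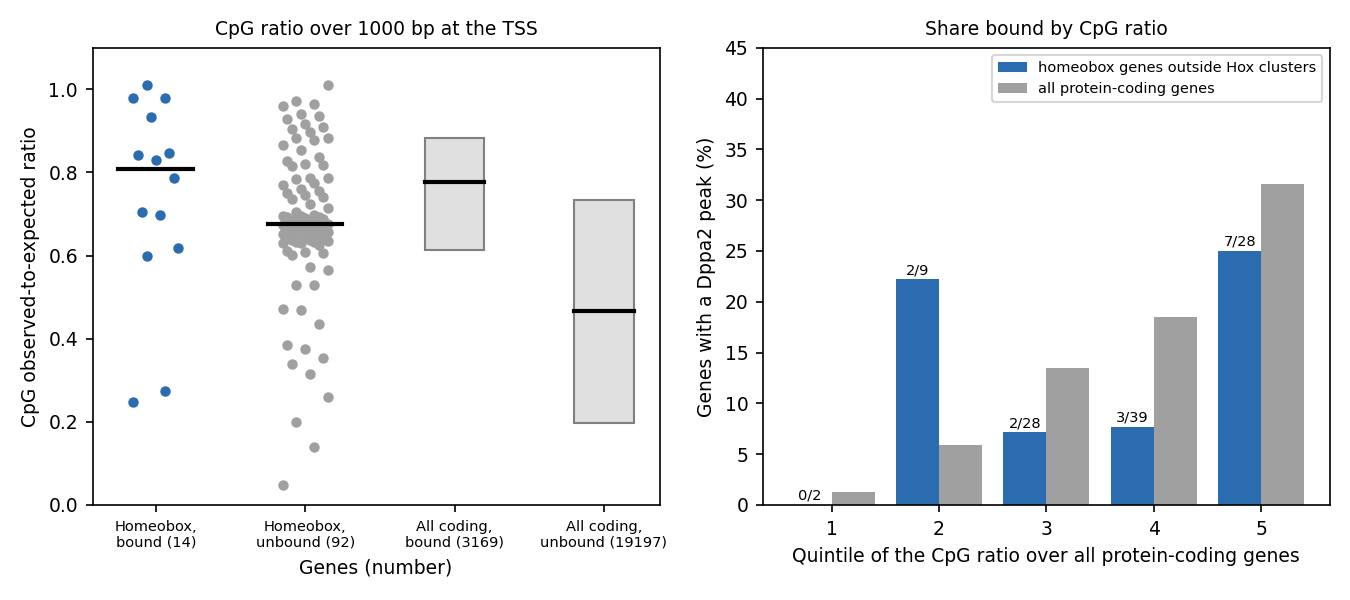
Left, CpG observed-to-expected ratio over 1000 bp at the TSS (y axis) for each bound and unbound homeobox gene (points) and the quartile range for coding genes (boxes), with medians as black lines at 0.808, 0.675, 0.776 and 0.467. Right, percent of genes with a Dppa2 peak (y axis) by quintile of the CpG ratio (x axis) for homeobox genes (blue, with counts) and all coding genes (grey), which rise from 1.32 to 31.6%.

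Away from the TSS the mean CpG density of homeobox genes was above that of coding genes, a difference given as a description without a test. In the first 200 bp after the TSS the bound homeobox genes had a mean of 10.0 CpGs per 100 bp and the bound coding genes 10.1. From 1000 to 1199 bp downstream the bound homeobox genes still had 4.93 and the unbound ones 4.73, beside 2.47 in bound and 1.58 in unbound coding genes. Upstream, from -1000 to -801 bp, the means were 3.39 and 2.65 in bound and unbound homeobox genes and 1.80 and 1.31 in the coding genes. Under the peaks themselves the bound homeobox genes had a median of 7.87 CpGs per 100 bp, from 2.32 at Nkx6-3 to 12.2 at Pbx3, and the peaks at coding genes 7.21. Whether the width of the peaks goes with this extent was not tested.

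**Figure D5:**
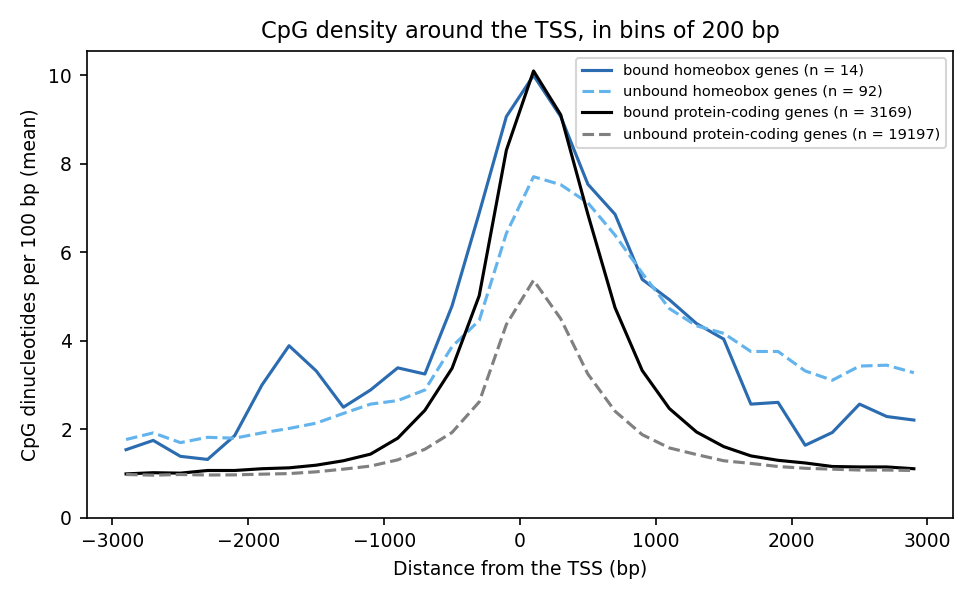
Mean number of CpG dinucleotides per 100 bp (y axis) in bins of 200 bp around 1 TSS per gene (x axis, bp) for bound and unbound homeobox genes outside Hox clusters (blue) and bound and unbound coding genes (black and grey). All lines peak just after the TSS, and from 1000 to 1199 bp downstream the homeobox lines stand at 4.93 and 4.73, above the 2.47 and 1.58 of the coding genes.

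Short motifs were searched on both strands in the promoters, from 250 bp before to 50 bp after 1 TSS per gene. The GC box GGGCGG, a site of Sp1 family factors, was present in 9 of the 14 bound homeobox promoters, or 64.3%, and in 59.8% of the unbound ones, beside 43.7% of all coding promoters and 68.4% of the bound ones. The 9 genes were Cdx1, Cux2, Dlx3, Irx6, Nkx6-2, Pax8, Pbx3, Phox2a and Pitx3. The homeodomain core TAATTA was found in 0 of 14 bound and 4 of 92 unbound homeobox promoters, in 1.80% of bound coding promoters and in 4.74% of all coding promoters. The E-box CACGTG was present at Pitx3 alone among the bound genes, in 12.0% of the unbound homeobox promoters in 8.52% of bound coding promoters and in 7.75% of all coding promoters. GGGCGG and CACGTG each hold a CpG and TAATTA holds none; a match to any of the 3 is a description of these letters.

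Each annotated TSS of a gene adds a window in which a midpoint can fall. Homeobox genes and coding genes had the same median of 2 TSSs. Of the 41 homeobox entries with 1 TSS, 7 were bound, beside 11.7% of coding genes with 1 TSS. Of the 47 with 2 to 4 TSSs, 3 were bound, beside 14.9%, and of the 18 with 5 or more, 4 were bound, beside 17.8%. The share bound thus rose with the number of TSSs in coding genes. In the homeobox genes it was lowest with 2 to 4 TSSs and highest with 5 or more, and the counts are small. The last 4 were Pax8, Pbx3, Cux1 and Cux2. With 1 TSS per gene the same 14 homeobox genes were bound. On chromosome 8, where 23.7% of coding genes were bound, 3 of the 5 homeobox genes had a peak, namely Irx5, Irx6 and Nkx6-3. Chromosomes 2 and 5 held the most homeobox entries, with 2 of 17 and 3 of 16 bound, beside 13.8% and 14.0% of their coding genes.

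Other homeobox genes gave the nearest comparison. In the Hox clusters 2 of 40 entries were bound, a share of 5.00% (95% exact interval 0.611 to 16.9%), namely Hoxd1 with a score of 325.6 and Hoxd12 with a score of 127.6. A list of 96 further homeobox symbols, of which 90 were found in the annotation, had 10 bound, or 11.1% (95% exact interval 5.46 to 19.5%). They included Vsx1 with a score of 459.4, Satb1 with 256.4, Prrxl1 with 225.6, Lbx2 with 219.3, Pou3f1 with 197.7, Pou4f1 with 177.7, Gsc2 with 133.5, Mixl1 with 124.7 and Zeb1 with 109.2. All 3 intervals overlap and include the 14.2% of coding genes, and the lists were not tested against each other. Hoxd12 and Evx2 lie at the same end of the Hoxd cluster, and the nearest midpoint to Evx2 was 15.7 kb from its TSS.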

How the data were processed

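Anti-V5 ChIP-seq was done on V5-Dppa2 CGR8 ESCs and the parental line, with 1 library each; 5 of the samples, the control and 4 histone modification ChIPs, were not analysed here, with the control used in peak calling alone. Per the study's methods, the authors left out low-complexity reads, mapped the rest to mm9 with Bowtie 0.12.7, removed duplicates and called peaks with MACS 1.4.2, with a limit of 1e-10 on the p-value and a minimum of 100 reads. The deposited score is 10 times the negative log10 of that p-value. The deposited list gives no summits, so distances run from peak midpoints to every TSS in GENCODE M1 (mm9). Depth is unknown. As the best alignment was kept, reads of near-identical genes cannot be told apart.

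The homeobox genes, lists and motifs were chosen with earlier results of these data known. Shares are given with exact intervals, beside those of all protein-coding genes, and no test was made. Composition was taken around the TSS shared by most transcripts. Every bound homeobox gene outside the Hox clusters is named, with unbound ones within 5 kb of a midpoint, within 100 kb of a bound gene or with the 5 highest CpG ratios; the rest is given by class, and some genes are not reported here. The steps were tested on simulated peaks. Alternatives were a stricter score, other windows, TSSs or parts of the peak, and merged peaks. Python 3.11.15, numpy 2.4.6, scipy 1.17.1, pandas 2.3.3 and matplotlib 3.10.9 were used.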

Additional observations from a re-analysis of the deposited data

How the results depend on the processing

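No paired analysis was possible because 1 library has a peak list and no comparison of conditions was made; for the same reason no replicate could be left out. The unknown depth limits what can be said of genes without a peak. Requiring a score of 200 or more lowered the count of bound homeobox genes from 14 to 4 (3.77%), of bound classes from 5 to 3, of bound Hox genes from 2 to 1, of other homeobox genes from 10 to 4 and the share of coding genes bound to 8.06%, as fewer peaks enter. It raised the median score at homeobox genes from 161 to 228 and moved their median midpoint from 118 to 44.5 bp downstream of the TSS. At this score the median CpG ratio was 0.732 in bound and 0.685 in unbound homeobox genes, beside 0.808 and 0.675 without the limit. A window of 500 bp left 11 bound homeobox genes, without Gbx1, Irx5 and Nkx6-2, and 1 Hox gene, with 12.6% of coding genes bound and a median position of 59.0 bp. The share of coding genes was 15.5% with a window of 5000 bp and 13.5% with 1 TSS per gene. Windows of 2000 or 5000 bp, any base of the peak, and peaks that cover the TSS each gave 15 homeobox genes, the 14 and Tlx3, with a median position of 176 bp; with 1 TSS per gene it was 206 bp. Coding TSSs and merged peaks kept the same 14 genes. Counting 1 entry per symbol gave 14 of 103, and leaving out Pax1, Pax2, Pax5, Pax8 and Pax9 gave 13 of 101; both were chosen after seeing the data.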
